A study of Homo sapiens with 6 samples.

Results

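Genes of the laminin-binding integrins and the hemidesmosome were examined in OE19 cells, an established oesophageal adenocarcinoma line. The 9 genes were ITGA6 with its beta partners ITGB4 and ITGB1, the related alpha subunit ITGA3, the laminin-332 chains LAMA3 and LAMB3, the tetraspanin CD151, and the plaque and membrane components PLEC and COL17A1. Members were taken by gene symbol, and 9 of the 13345 genes in the table matched, each under 1 identifier. ITGA6 had been picked because of its difference between the same samples, so the differences of the members between the groups are given as a description and no test of them is used.

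All 6 samples were OE19 cells transfected with a locked nucleic acid oligonucleotide. The control group of 3 samples received Negative Control A of the miRCURY LNA Power inhibitors, and the other 3 samples received the miRCURY LNA Power inhibitor of miR-451a. The samples came from 3 experiments, numbered alike in both groups. No animals, transgenes or sorted cells were involved, the results hold for 1 cell line, and irradiation of these cells before sequencing is neither stated nor denied in the sources.

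The hemidesmosome fastens the basal surface of an epithelial cell to the basement membrane. The integrin alpha 6 beta 4 binds laminin outside the cell, and the long cytoplasmic tail of beta 4 binds plectin, which ties it to keratin filaments. COL17A1 and the tetraspanin CD151 stabilise this complex in the membrane. Simple epithelia lack some of the components of the full structure found in skin and rely mainly on the integrin and plectin. Alpha 6 can also pair with beta 1, as alpha 3 does, and these receptors bind the same laminins but connect to actin.

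Because the agent under study blocks a microRNA, the seed of miR-451a and its matches in the 9 genes are shown first. The seed, bases 2 to 8, is in capitals.

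hsa-miR-451a: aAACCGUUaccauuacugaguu

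A transcript that pairs with the whole seed carries AACGGTT, and one that pairs with bases 2 to 7 carries ACGGTT, which is contained in the longer site. The sense strand of annotated 3' UTRs was searched in GENCODE transcripts. The 7-base site was found in 0 of the 9 genes, and it was present in 324 of 13163 measured genes with an annotated 3' UTR (2.46%). The 6-base site was present in 1148 of those genes (8.72%) and in 1 member, ITGB1. There it lay in 1 of the 21 ITGB1 transcripts that were searched, at bases 572 to 577 of a 3' UTR of 1679 bases. It is shown because it was the only match among the members, with the site in capitals.

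ITGB1 3' UTR, GRCh37 chr10:33177292-33177319, minus strand: ctgtgggatccACGGTTactgggcggag

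The longest ITGA6 3' UTR searched had 2391 bases and held neither site. These matches describe letters in the annotation, and no binding was measured. Expression was given per gene, so whether the cells made the ITGB1 transcript with the site is not known. The position of the site and the span of ITGB1 given below are in different genome builds and were not compared.

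Expression is given as the normalised value, a gene count that the authors adjusted for gene length and GC content within each sample and then scaled between samples. Adjusted counts summed to between 14084387 and 18726440 per sample. The values are close to ranks at the top of the scale. Every sample had 15 genes at its highest value, and the genes followed in blocks of 15 with a step in value between blocks. The number of a gene's block is called its rank position here, with 1 for the highest values. Taken at the top of each block, the ratio between positions 1 and 2 was 1.75 in control 1, and that between positions 55 and 56 was 1.01.

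Inhibitor sample 3 stood apart, where 1373 of 11095 genes differed over 2-fold from the median of the rest, while the other samples had 62 to 214 such genes each. Of 12 genes listed as columnar epithelial markers 10 were measured. ERBB2, 1 of these, encodes a growth factor receptor rather than a marker of columnar cells, and its mean was 75008. The means of the rest ran from 89.2 for CDX2 to 52854 for KRT8, which lay between 48381 and 59299 in all samples. Of 10 mesenchymal markers 3 were measured, of 6 endothelial markers 1 and of 9 blood cell markers 2. The squamous markers, 6 of 9 of which were measured, had summed values of 518 to 764 in the controls and of 410 to 713 with the inhibitor.

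ITGA6 (ENSG00000091409.14, GRCh38 chromosome 2, 172427336 to 172506459) encodes the alpha 6 subunit. It had the highest mean value of the 9 genes over all 6 samples. With the inhibitor alone its mean of 28132 was below those of ITGB4 (35862) and PLEC (45636). The ITGA6 value was 90232, 80468 and 48396 in controls 1, 2 and 3, and 18347, 51740 and 14310 in inhibitor samples 1, 2 and 3. Inhibitor samples 1 and 3 lay below every control, while inhibitor sample 2 lay above control 3, so the groups overlapped. Within the experiments the value was 4.92-fold, 1.56-fold and 3.38-fold lower with the inhibitor. The fitted difference in log2(value + 1) was -1.56 ± 0.53 (SE, n = 3 against 3). Leaving out inhibitor sample 3 gave -1.20, and leaving out inhibitor sample 2 gave -2.12. In bulk RNA such as this, fewer cells of a kind and less of the RNA per cell cannot be told apart.

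These values correspond to few steps in rank. In controls 1 and 2 ITGA6 was at position 1, with 14 other genes at exactly the same value and none above. It was at position 2 in control 3, where 18 genes had a higher value. In the inhibitor samples it was at positions 7, 2 and 9, where 93, 18 and 123 genes had higher values. ITGA6 was therefore at position 2 both in control 3 and in inhibitor sample 2. The deposited values do not show how far apart genes of 1 position had been before the adjustment.

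**Figure D1:**
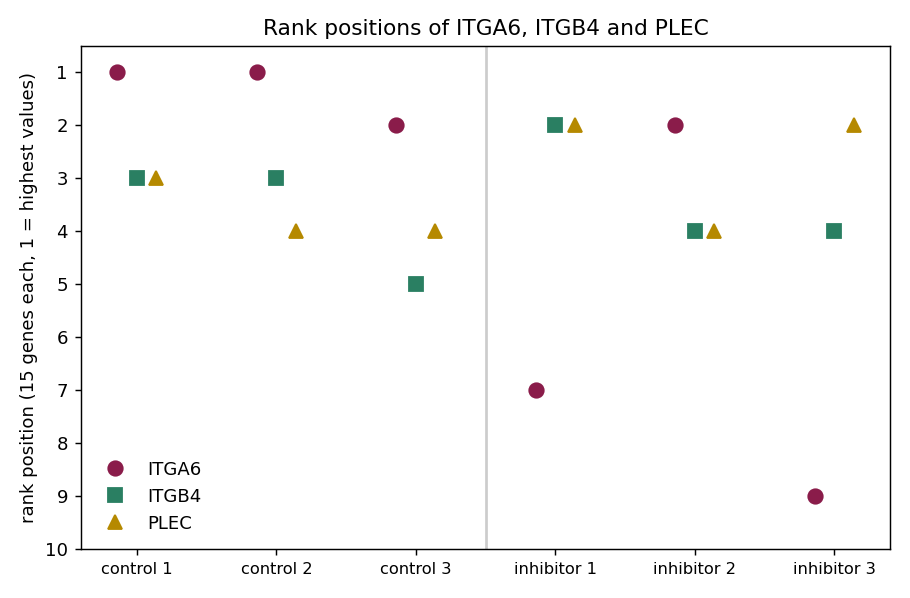
Rank position, counted in blocks of 15 genes from the highest values, of ITGA6, ITGB4 and PLEC in each of the 6 samples, with small sideways offsets so that equal positions can be seen. ITGA6 is at position 1 or 2 in the controls and at 7, 2 and 9 in the inhibitor samples, while ITGB4 and PLEC stay between positions 2 and 5.

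ITGA3 (GRCh38 chromosome 17, 50056110 to 50090481), the other laminin-binding alpha subunit among the members, was far more even. Its value was 3042, 2950 and 2949 in the controls and 3128, 2773 and 2739 in the inhibitor samples. The groups overlapped, with inhibitor sample 1 the highest of the 6 and inhibitor samples 2 and 3 the lowest. Its log2 difference was -0.05 ± 0.12 (SE).

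Among the 10 alpha subunits measured, ITGA6 held 93.5%, 93.4% and 88.8% of the summed alpha values in the controls, and 77.0%, 90.3% and 74.2% in the inhibitor samples. It was the leading alpha subunit in every sample. These shares are of the deposited values, which the authors had adjusted for length. Since genes of 1 rank position have nearly the same value, the shares do not measure amounts of RNA. The share of ITGA3 was 3.99% ± 1.23 (SD, n = 3) in the controls and 10.7% ± 5.12 (SD, n = 3) with the inhibitor, while its own log2 difference was the small one given above. The ratio of the ITGA6 to the ITGA3 value was 29.7, 27.3 and 16.4 in the controls and 5.87, 18.7 and 5.22 in the inhibitor samples.

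**Figure D2:**
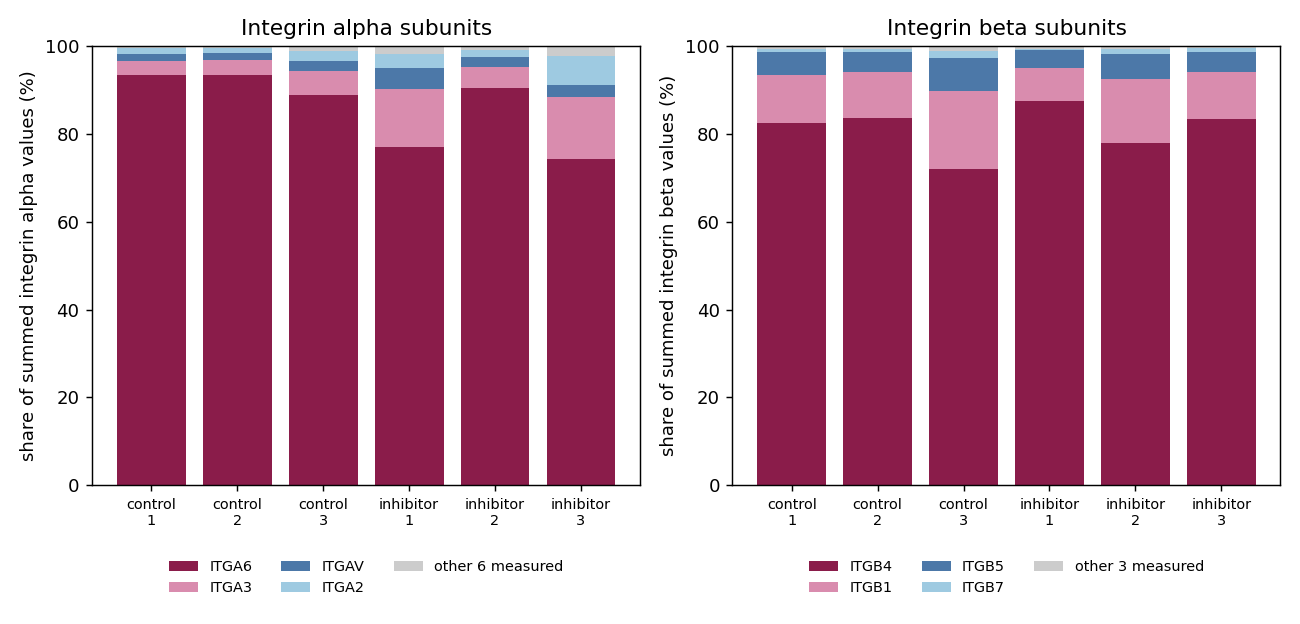
Share of the summed normalised values of the measured integrin alpha subunits (left, 10 genes) and beta subunits (right, 7 genes) in each sample, in percent. ITGA6 and ITGB4 are the largest part of every bar, and the ITGA6 share is lowest in inhibitor samples 1 and 3, at 77.0% and 74.2%.

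ITGB4 (GRCh38 chromosome 17, 75721459 to 75757818) encodes the beta subunit that pairs with alpha 6 alone. Its value was 37617, 36970 and 18008 in the controls and 52019, 25627 and 29941 in the inhibitor samples. It was higher with the inhibitor in experiments 1 and 3 and lower in experiment 2, and the groups overlapped. The log2 difference was 0.22 ± 0.41 (SE), and its sign turned without control 3 (-0.13) or inhibitor sample 1 (-0.08).

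The ratio of the deposited ITGA6 value to that of ITGB4 differed between samples. The ITGA6 value was 2.40, 2.18 and 2.69 times that of ITGB4 in the controls and 2.02 times in inhibitor sample 2. In inhibitor samples 1 and 3 it was 0.353 and 0.478 times that of ITGB4. The order of the pair was thus reversed in those 2 samples only. Both genes lay where values go by rank position, so this ratio does not measure relative amounts of RNA. Since the ratio uses the ITGA6 contrast, it is a description.

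ITGB1 (GRCh38 chromosome 10, 32900318 to 32958230), the common partner of alpha 3 and of many other alpha subunits, had values of 4987, 4688 and 4394 in the controls. In the inhibitor samples its value was 4527, 4860 and 3905. Inhibitor sample 3 was the lowest of the 6 and the groups overlapped. ITGB4 exceeded ITGB1 in every sample, by 4.10 times in control 3 up to 11.5 times in inhibitor sample 1. Of the 7 beta subunits measured, ITGB4 held 81.1% ± 5.37 and ITGB1 12.1% ± 3.54 of the summed beta values (SD, n = 6). Like the alpha shares, these ratios and shares of deposited values do not measure amounts of RNA.

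**Figure D3:**
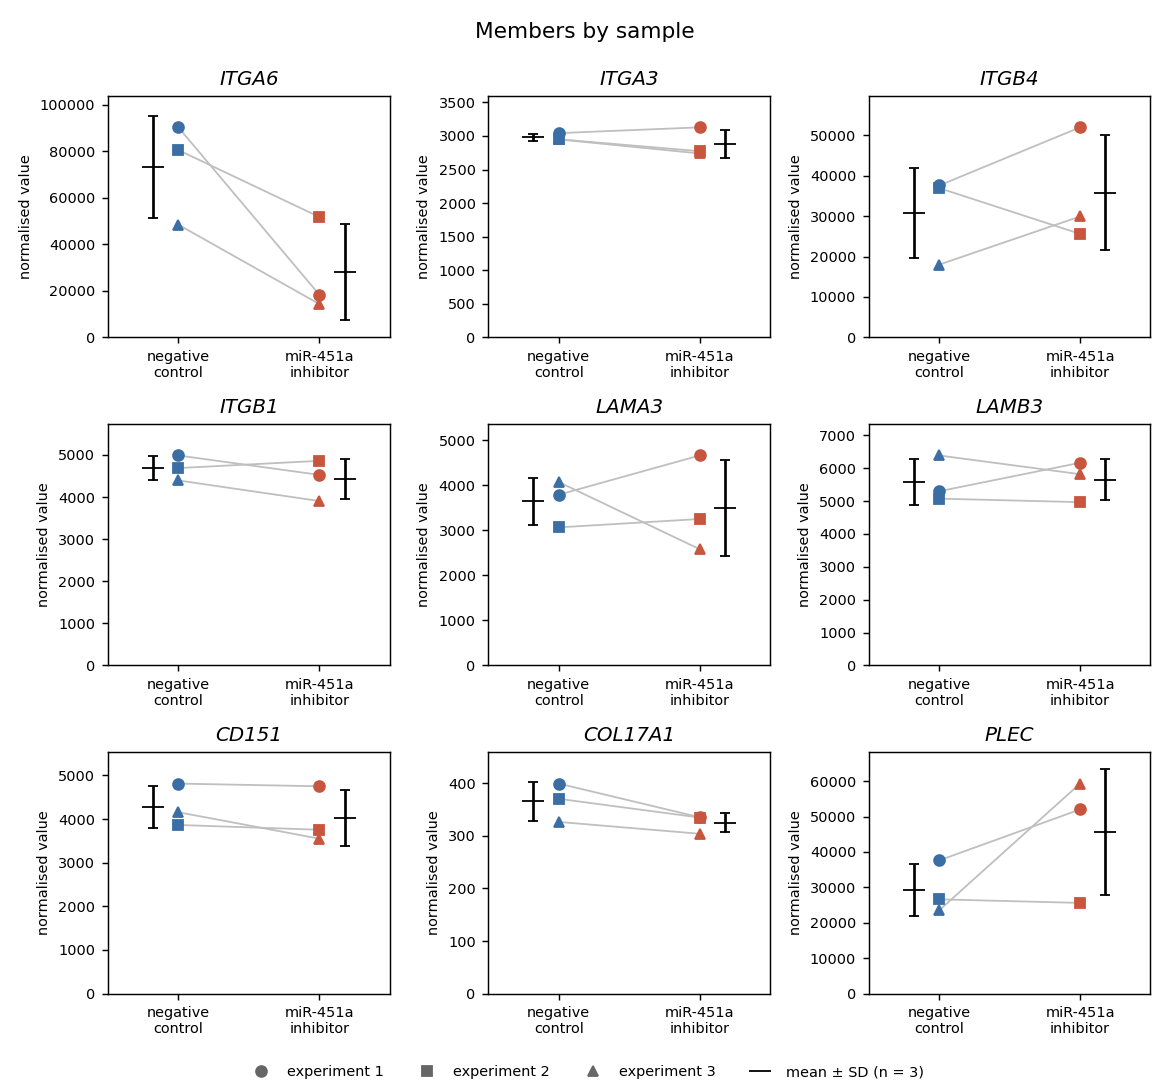
Normalised value of each of the 9 genes in the 3 negative control (blue) and 3 miR-451a inhibitor samples (red), each panel with its own axis from 0, grey lines joining samples of the same experiment, and bars giving the mean ± SD (n = 3). ITGA6 is lower with the inhibitor in each experiment, from 90232 to 18347, 80468 to 51740 and 48396 to 14310, whereas ITGA3 stays between 2739 and 3128.

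LAMA3 and LAMB3 encode the alpha 3 and beta 3 chains of laminin-332, the main ligand of alpha 6 beta 4 and alpha 3 beta 1. LAMB3 (GRCh38 chromosome 1, 209614870 to 209652425) had values of 5297, 5072 and 6385 in the controls and 6163, 4966 and 5816 in the inhibitor samples. Inhibitor sample 2 was the lowest and control 3 the highest of the 6, with the groups overlapping in between. Its log2 difference was 0.02 ± 0.16 (SE), and the sign turned when control 1, control 2, inhibitor sample 1 or inhibitor sample 3 was left out.

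LAMA3 (GRCh38 chromosome 18, 23689453 to 23955066) varied more, with 3791, 3065 and 4072 in the controls and 4662, 3252 and 2581 in the inhibitor samples. Inhibitor sample 1 was the highest and inhibitor sample 3 the lowest of the 6. The log2 difference was -0.09 ± 0.23 (SE), and 0.11 without inhibitor sample 3. The LAMA3 value was 0.604 to 0.716 times that of LAMB3 in the controls, and 0.756, 0.655 and 0.444 times in the inhibitor samples.

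CD151 (GRCh38 chromosome 11, 832952 to 838831) encodes the tetraspanin that binds alpha 3 and alpha 6 integrins. Its value was 4814, 3865 and 4157 in the controls and 4752, 3756 and 3552 in the inhibitor samples. It was lower with the inhibitor in all 3 experiments, by 1.01-fold, 1.03-fold and 1.17-fold, and the groups overlapped widely.

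COL17A1 (GRCh38 chromosome 10, 104031286 to 104085880) encodes a transmembrane collagen of the skin-type hemidesmosome and had the lowest level of the members. Its value was 399.6, 370.6 and 326.6 in the controls and 335.5, 335.0 and 304.1 in the inhibitor samples. It was lower in all 3 experiments, by 1.19-fold, 1.11-fold and 1.07-fold, and control 3 lay below inhibitor samples 1 and 2. The log2 difference was -0.17 ± 0.14 (SE).

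PLEC (GRCh38 chromosome 8, 143915153 to 143976745) encodes plectin, the plaque protein that links beta 4 to keratins. Its value was 37598, 26612 and 23502 in the controls and 52006, 25603 and 59299 in the inhibitor samples. Inhibitor samples 1 and 3 lay above every control, and inhibitor sample 2 lay between controls 2 and 3. The log2 difference was 0.58 ± 0.40 (SE), and 0.35 without inhibitor sample 3. Like ITGA6 and ITGB4, PLEC lay in the stepped upper part of the scale, at positions 3, 4 and 4 in the controls and 2, 4 and 2 in the inhibitor samples. The median SE of the log2 difference was 0.29 among the 190 genes whose mean value reached 10000, and 0.17 among the 3130 genes whose mean value lay from 1000 to 10000.

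Of the 9 genes, 0 passed an adjusted p of 0.05 with limma, where 0.00% of the 12723 genes tested did. At an unadjusted p below 0.05 limma called 119 genes (0.935%), DESeq2 called 250 (1.96%) and edgeR 163 (1.28%), and after adjustment DESeq2 and edgeR each called 0. ITGA6 was the 1 member at an unadjusted p below 0.05 with limma, and it had been chosen from this contrast. The groups were without overlap for 0 of the 9 genes, against 5.61% of the genes tested (2.9% with the inhibitor lower and 2.71% with it higher). ITGA6, CD151 and COL17A1 were lower in all 3 experiments (3 of 9, against 12.2% of the genes tested), and 0 of 9 were higher in all 3 (12.2%), where 24.4% of the genes tested went 1 way in all 3. The median log2 difference of the 9 genes was -0.09, and that of all genes tested was -0.0035. Since the members were chosen with these samples known, nothing is read from these counts.

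**Figure D4:**
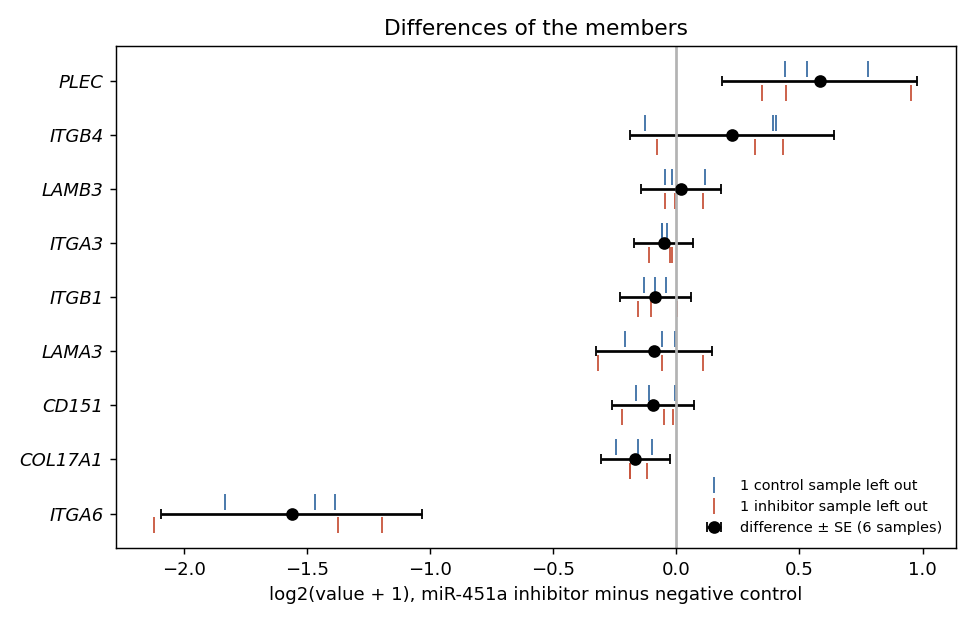
Difference in log2(value + 1), miR-451a inhibitor minus negative control, for each of the 9 genes (black point) with its SE as a bar (n = 3 against 3), and the same difference with 1 control sample (blue ticks) or 1 inhibitor sample (red ticks) left out. ITGA6 stays between -2.12 and -1.20, PLEC stays above 0, and the ticks of ITGB4, ITGB1, LAMA3 and LAMB3 fall on both sides of 0.

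Ordered by mean value over the 6 samples, the genes ran ITGA6, PLEC, ITGB4, LAMB3, ITGB1, CD151, LAMA3, ITGA3 and COL17A1. ITGA6 and PLEC did not differ beyond their spread over both groups (mean log2 difference 0.23 ± 1.58, SD, n = 6), and neither did PLEC and ITGB4 (0.15 ± 0.49). For ITGA6 and PLEC this spread takes in the differences between the groups. ITGA6 was above PLEC in 4 of 6 samples, the controls and inhibitor sample 2. It was below PLEC in inhibitor samples 1 and 3. From ITGB4 to LAMB3 there was a gap of 2.50 ± 0.57, in the same order in all 6 samples. ITGB1 and CD151 were again within their spread of each other (0.14 ± 0.16). The gap from ITGA3 down to COL17A1 was 3.09 ± 0.12. The genes thus fell into levels, with ITGA6, ITGB4 and PLEC at the top, the laminin chains, ITGB1, CD151 and ITGA3 in the middle, and COL17A1 below them.

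The genes whose pattern was most like that of ITGA6 over the 6 samples were SASS6, NPAT, LIN7B, NHS and AP1S3, with Pearson correlations of log2(value + 1) of 0.99, 0.99, 0.98, 0.98 and 0.98 among 11094 genes. These are descriptions over 6 samples that share the 2 groups and the 3 experiments. The SASS6 value, for a centriole assembly protein, was 220.7, 214.7 and 172.6 in the controls. In the inhibitor samples the SASS6 value was 122.9, 186.2 and 101.7. That inhibitor samples 1 and 3 were lowest, as for ITGA6, follows from picking SASS6 by its likeness to ITGA6. Of the members, COL17A1 was the most like ITGA6 (0.82, rank 466), followed by ITGB1 (0.80, rank 574). ITGB4 was at rank 6409 (-0.17) and PLEC at rank 10331 (-0.76).

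The related genes were taken from 6 lists of other integrins, laminins, plakins and keratins, basement membrane, adhesion plaque, and laminin receptors and processing. Of 61 tested genes in these lists, 0 passed limma after adjustment (0.00% of all genes tested), and 0 were at an unadjusted p below 0.05 (0.935%). The smallest adjusted p of any gene tested with limma was 0.899.

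Of 22 other integrin subunits 13 were measured and 12 tested. The median log2 difference was -0.23, 3 were higher and 9 lower, and 4 of 12 were lower in all 3 experiments against 12.2% of the genes tested. Those 4 were ITGAV, ITGB6, ITGB7 and ITGB8. ITGB5, a beta partner of alpha V, and ITGAV itself had the highest levels, with means of 2005 ± 290 and 1219 ± 364 (SD, n = 6). The ITGAV value was 1531, 1376 and 1353 in the controls and 1172, 1369 and 514 in the inhibitor samples. Control 3 lay below inhibitor sample 2, so the groups overlapped. ITGA10 had the largest difference (-0.95 ± 0.56, SE), from values of 69.7, 98.3 and 238.8 to 60.9, 110.3 and 33.2.

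Of 10 other laminin chains 8 were measured, of which 4 were higher and 4 lower with the inhibitor (median 0.01). LAMA5, an alpha chain found in many epithelial basement membranes, had the highest level at 11055 ± 1000.1 (SD, n = 6). LAMB2 had the largest difference, -0.34 ± 0.24 (SE). Its value was 1223, 1248 and 2021 in the controls and 990, 1467 and 1043 in the inhibitor samples. The groups overlapped, and LAMB2 was higher with the inhibitor in experiment 2. The laminin chains together, members included, summed to 36034 ± 1404 (SD, n = 3) in the controls and 36491 ± 1795 (SD, n = 3) with the inhibitor.

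Of the plakins and keratins 6 of 7 were measured, with a median of 0.05. KRT8 and KRT18, the keratins of simple epithelia, had mean values of 52854 and 18002, whereas KRT14, a basal keratin of squamous epithelium, lay between 19.7 and 82.1. KRT14 also had the largest difference (-0.73 ± 0.45, SE). DST, which encodes the plakin BPAG1, was named after its values were seen. It was at 8163 in inhibitor sample 3 and between 3108 and 4321 in the other 5 samples.

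Of 15 basement membrane genes 10 were measured and 8 tested (median 0.17, 5 higher and 3 lower). AGRN and HSPG2, which encode the heparan sulphate proteoglycans agrin and perlecan, had the highest levels, with means of 15556 and 6442. COL4A2 had the largest difference, 0.65 ± 0.48 (SE), with values of 231.4, 191.2 and 107.5 in the controls and 241.6, 145.7 and 525.2 in the inhibitor samples.

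Of 22 adhesion plaque genes 21 were tested, 14 higher and 7 lower (median 0.07). FLNA and ACTN4, which crosslink actin, had the highest levels, with means of 34464 and 18889. TNS1 had the largest difference, -0.97 ± 0.60 (SE), at values of 7.27 to 44.4. PTK2, which encodes focal adhesion kinase, was the 1 of the 61 genes whose groups did not overlap, where 5.61% of the genes tested did not, and it was named after its values were seen. Its value was 1918, 1973 and 1778 in the controls and 2213, 2042 and 2369 in the inhibitor samples. The difference in log2 was 0.22 ± 0.12 (SE), and limma gave an adjusted p of 0.899.

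Of 7 genes for laminin receptors and processing 6 were measured, 3 higher and 3 lower (median 0.0004). SDC1 and DAG1, for syndecan-1 and dystroglycan, had the highest levels, with means of 7206 and 4717. BCAM, a laminin alpha 5 receptor, had the largest difference, 0.40 ± 0.39 (SE). Its value was 2396 in inhibitor sample 3 and between 796 and 979 elsewhere.

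**Figure D5:**
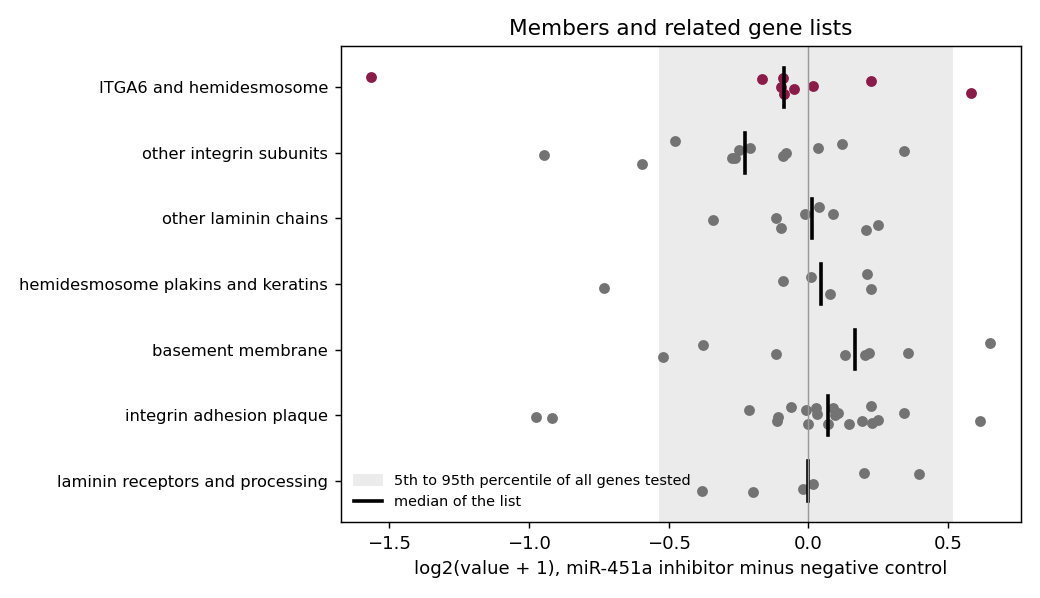
Difference in log2(value + 1), miR-451a inhibitor minus negative control, for each tested gene (points, with vertical jitter) of the 9 members and the 6 related lists, with the median of each list as a black line and the range from the 5th to the 95th percentile of all 12723 genes tested in grey (-0.53 to 0.51). ITGA6 at -1.56 and PLEC at 0.58 lie outside that range among the members, and the list medians lie between -0.23 and 0.17.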

How the data were processed

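Messenger RNA of 6 OE19 samples was analysed from 1 table, with groups and experiment numbers from the sample titles and column headers. The methods of the study and the submitters' processing notes name cutadapt 1.8 for trimming, FastQC 0.11.8 for read quality and STAR 2.7.0f with GRCh38 for alignment. The authors then corrected gene counts by EDASeq for length and GC content, and DESeq2 served for scaling between samples. For the counting of reads, the tool is not given in the sources used here. Each deposited value is thus a normalised signal of 1 gene. Divided by the smallest value above 0 of each column, 100.0% came out whole within 1e-06. They stand for counts as adjusted by the authors rather than raw reads.

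The 12723 genes whose mean value reached 10 entered a limma 3.58.1 fit of log2(value + 1) in R 4.3.3 (trend, two-sided, Benjamini-Hochberg adjustment over all genes, threshold 0.05). The log2(value + 1) scale understates changes of low genes. P-values weigh each difference only against the spread between these samples, which came from 3 experiments on 1 cell line. Part of that spread may be technical. The Mann-Whitney test named by the study cannot go below 0.1 with 3 against 3 samples. As alternatives, these whole numbers were also tested with DESeq2 1.42.0 and with edgeR 4.0.16, which each called 0 genes after adjustment. The limma step was tested on simulated data.

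The members and lists were chosen with earlier results of these data known. Named genes were the 9 members, of each related list the 2 highest and the one with the largest difference, and the 5 most like ITGA6 among genes whose mean value reached 50. Of the related genes, ITGB6, ITGB7, ITGB8, DST and PTK2 were named outside this rule, after their values were seen. A result under this rule is not reported here. Coordinates of genes came from RefSeq (GRCh38) by symbol. The miR-451a sequence came from the study's assay list, and 3' UTRs from GENCODE lifted to GRCh37, another build than the authors', joined by Ensembl identifier.

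The column headers number the same experiments in both groups, which was taken to pair the samples. Across genes, the deviations from the group mean correlated at 0.21, 0.15 and -0.004 between samples of equal number.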

Additional observations from a re-analysis of the deposited data

How the results depend on the processing

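The 13 alternatives run were TMM rescaling, a pseudocount of 10, no filter, a mean value of at least 50, the experiment as a replicate block, each of the 6 samples left out, and DESeq2 and edgeR on the recovered whole numbers. In each of them 0 genes and 0 of the related genes passed an adjusted p of 0.05. The replicate block leaves every fitted difference as it is in this balanced design (ITGA6 -1.56) and can alter only its error, and with it 128 genes had an unadjusted p below 0.05. It changed no call. The ITGA6 difference stayed below 0 in all 13 alternatives, from -2.12 to -1.20, and was -1.38 with DESeq2 and with edgeR. Since ITGA6 was picked for its difference in these same samples, its constant sign is a description and no support. ITGA3, CD151 and COL17A1 also stayed below 0 and PLEC above 0 (0.35 to 0.95). With 1 sample left out, ITGB4 ranged from -0.13 to 0.43, ITGB1 from -0.16 to 0.0022, LAMA3 from -0.32 to 0.11 and LAMB3 from -0.05 to 0.12, each turning sign. The median of the 9 genes ranged from -0.11 to -0.0064. The count at an unadjusted p below 0.05 was 1360 genes without inhibitor sample 2, 63 without control 2, 42 without control 3, 250 with DESeq2, 76 with a mean value of at least 50 and 119 in the main test. The cause was not tested.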
